A study of Mus musculus with 12 samples.

Results

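The 10 genes *Slc7a1*, *Slc7a2*, *Arg1*, *Arg2*, *Nos2*, *Oat*, *Odc1*, *Srm*, *Sms* and *Sat1* carry arginine into the cell and turn it into urea and ornithine, nitric oxide or polyamines. They were chosen by name for this pathway and not by their values, and each had 1 row among the 34327 genes of the table. Bone marrow–derived macrophages (BMDMs) were grown from the marrow of wild-type C57BL/6J mice (C57BL/6 in the strain label) with L929 cell–conditioned medium, which supplies the growth factor that turns marrow cells into macrophages. They were then kept on tissue culture (TC) plates, in low-collagen gels (2 mg/ml) or in high-collagen gels (7 mg/ml) of rat tail collagen I, untreated or with recombinant IL-4 (20 ng/ml), and the labels give 24 hours for every group. The gels were cut loose from their wells so that they floated. Each of the 6 conditions had 2 libraries of polyA RNA, 12 in all, and the study asked whether the response of macrophages to IL-4 depends on the matrix around them.

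The sources used here do not say whether the 2 libraries of a condition came from separate cultures or mice, so the p-values below measure only the spread between these libraries, which may be technical. Gels and plates also differed in the vessel and the number of cells, and these cannot be told apart from the collagen. RNA was measured over whole cultures, so fewer cells that express a gene and less RNA per cell cannot be told apart either.

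Arginine enters macrophages through cationic amino acid transporters, of which CAT1, encoded by *Slc7a1*, is the widely expressed form and CAT2, encoded by *Slc7a2*, is the form known to be induced in activated macrophages. Inside the cell, inducible nitric oxide synthase (*Nos2*), a hallmark of the response to microbial products, and the arginases (cytosolic *Arg1*, mitochondrial *Arg2*) compete for it. *Arg1* is a classic marker of IL-4–stimulated mouse macrophages. Ornithine, the product of the arginases, goes toward proline through ornithine aminotransferase (*Oat*) or toward polyamines through ornithine decarboxylase (*Odc1*), spermidine synthase (*Srm*) and spermine synthase (*Sms*), whereas spermidine/spermine N1-acetyltransferase (*Sat1*) acetylates polyamines for breakdown or export.

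Values are TPM, the abundance of a transcript per length and scaled to a common library total, so levels can be compared between genes. How many reads stand behind a value is unknown, since TPM carry no depth, and no counting interval can be given. Library totals were 997505 to 997977 TPM after repeated lines were collapsed, 11543 to 11910 genes reached 1 TPM in a library, and log2(TPM + 1) correlated at 0.980 to 0.985 between the 2 libraries of a condition. Differences are log2 fold changes of TPM + 1 from limma, and a gene is called at an adjusted p under 0.2, the threshold of the study. Folds given with them are also of TPM + 1, so they are smaller than folds of TPM, most of all at low levels. An exact permutation test of 2 libraries against 2 cannot go below 0.333, so each call relies on a spread borrowed by limma from all genes. The 7 macrophage markers summed to 17459 to 27861 TPM on plates and 30616 to 53481 TPM in gels, against at most 0.668 TPM for 5 fibroblast markers, at most 2.22 TPM for 3 eosinophil markers and at most 1.27 TPM for 3 dendritic cell markers. The 4 neutrophil markers summed to 4.08 to 9.16 TPM on plates and 12.8 to 30.2 TPM in gels, with *Ly6g* at 0 in all 12 libraries. Their part in the differences between gels and plates was not tested.

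Not all of the 10 genes can be told apart from near copies with equal certainty. Of the 31-base words of its annotated transcripts, *Odc1* shared 31.3% with other genes, *Sms* 18.8%, *Srm* 9.41%, *Sat1* 6.92%, *Slc7a2* 2.03%, *Oat* 1.12% and *Slc7a1* 0.69%, and *Arg1*, *Arg2* and *Nos2* shared 0. The 18 copies of *Odc1* in the table reached at most 0.655 TPM. *Sms-ps*, which held 17.75% of the words of *Sms*, was listed at 17.8 to 33.5 TPM on plates and 11.3 to 14.9 TPM in gels, so the level of *Sms* is less certain than the others, and both genes were higher on plates in every library.

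Promoters are shown for 3 genes whose level differed between gels and plates, whose window ends where the annotated gene starts and whose window holds one of the motifs searched, to show where those motifs lie. *Slc7a1* and *Sms* were lower in gels and *Sat1* was higher. Each run is the 250 bases before the start site in RefSeq (GRCm38.p6), read along the gene, at chr5:148399905-148400154 for *Slc7a1*, chrX:157492288-157492537 for *Sms* and chrX:155216450-155216699 for *Sat1*, all on the minus strand. Capitals mark the GC box (GGGCGG or its complement CCGCCC) in *Slc7a1* and *Sat1* and the E-box (CACGTG) in *Sms*.
Slc7a1: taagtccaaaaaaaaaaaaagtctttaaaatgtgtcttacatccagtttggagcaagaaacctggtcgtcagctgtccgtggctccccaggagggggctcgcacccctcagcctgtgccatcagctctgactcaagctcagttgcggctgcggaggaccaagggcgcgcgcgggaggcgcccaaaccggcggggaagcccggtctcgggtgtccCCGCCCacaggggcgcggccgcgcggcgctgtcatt
Sms: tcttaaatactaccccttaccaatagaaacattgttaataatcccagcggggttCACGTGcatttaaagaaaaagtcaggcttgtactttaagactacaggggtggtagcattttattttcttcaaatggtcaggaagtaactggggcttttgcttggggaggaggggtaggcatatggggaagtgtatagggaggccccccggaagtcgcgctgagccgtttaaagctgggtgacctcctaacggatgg
Sat1: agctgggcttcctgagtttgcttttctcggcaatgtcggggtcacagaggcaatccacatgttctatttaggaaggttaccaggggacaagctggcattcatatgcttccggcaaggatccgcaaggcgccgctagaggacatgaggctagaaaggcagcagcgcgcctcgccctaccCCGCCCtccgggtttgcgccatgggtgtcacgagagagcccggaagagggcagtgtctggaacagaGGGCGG

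The motifs were searched on both strands in 7 windows of 5 of the genes, since *Slc7a1* and *Sms* have a second start site each. *Arg1*, *Arg2*, *Nos2*, *Slc7a2* and *Srm* had no window and were not searched. The search thus says nothing of *Arg1* and *Slc7a2*, the members most raised by IL-4. Counting bases back from the start site as negative, the *Slc7a1* window held 1 GC box at −36 and the *Sat1* window held 2, at −72 and −6. A GC box was in 32.7% of the 32851 promoter windows. CACGTG, the letters bound by MYC and related factors, lay at −196 in the *Sms* window and was in 6.02% of all windows. The *Odc1* window (chr12:17544623-17544872), which overlaps the annotated gene and is not printed, was 80.0% G and C against a median of 52.4% over all windows, and held 4 GC boxes and no CACGTG. The letters of the STAT6 site with a spacer of 4 bases (TTCNNNNGAA, in 5.85% of all windows), of the CRE (TGACGTCA, 1.55%) and of the amino acid response element (TTGCATCA, 0.791%) were in 0 of the 7 windows. The *Oat* window held none of the motifs searched. The second *Sms* window held 4 GC boxes, 3 of them overlapping, and the second *Slc7a1* window held a TATA box (TATAAA, in 12.4% of all windows). A match is a description of letters and not a bound site, and these windows say nothing of sites further away.

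**Figure D1:**
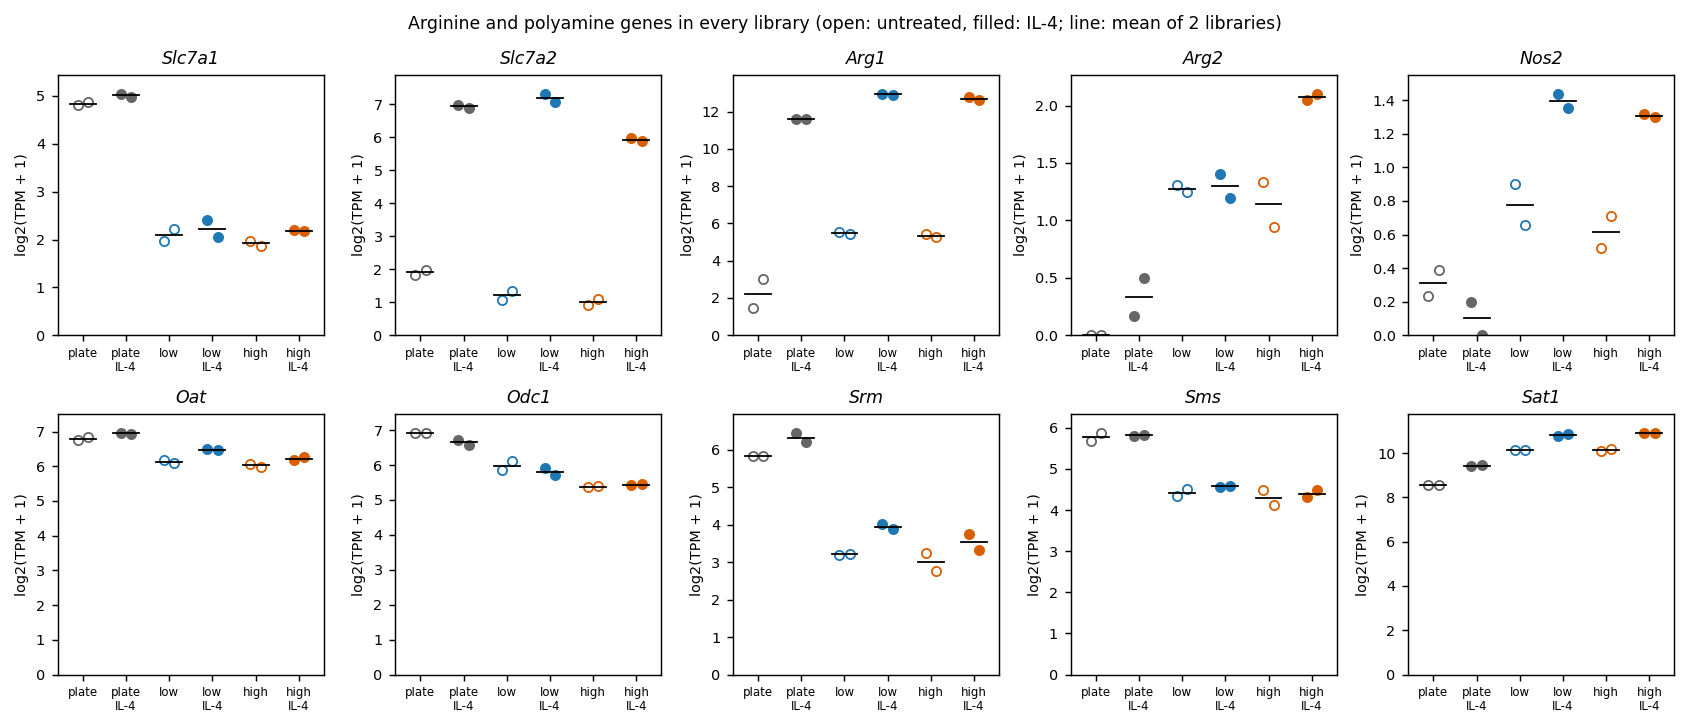
Level of each of the 10 genes as log2(TPM + 1) (vertical axis, from 0, scaled for each gene) in the 12 libraries, by condition on the horizontal axis; open points are untreated, filled points had IL-4, and the line is the mean of 2 libraries. *Arg1* and *Slc7a2* rise with IL-4 in every culture. All plate libraries lie above all gel libraries for *Slc7a1*, *Srm*, *Sms*, *Odc1* and *Oat*, and below them for *Sat1*, *Arg2* and *Nos2*. The share of all genes that separate so was not counted. In untreated gels against plates, 29.7% of all genes tested were called higher and 46.7% lower, so this separation does not set these genes apart.

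The arginine transporters differed in pattern: *Slc7a1* differed between plates and gels but not detectably with IL-4, and *Slc7a2* differed with IL-4 in every culture. By smaller amounts, *Slc7a2* was also lower in untreated gels than on untreated plates and, with IL-4, lower at high than at low collagen. *Slc7a1* (ENSMUSG00000041313, chr5:148327410-148399904) was at 27.0 and 28.3 TPM on untreated plates and at 32.0 and 30.6 TPM on plates with IL-4. In gels it was at 2.90 and 3.64 TPM (low collagen, untreated), 4.28 and 3.13 TPM (low collagen, IL-4), 2.94 and 2.64 TPM (high collagen, untreated) and 3.58 and 3.51 TPM (high collagen, IL-4). All 4 plate libraries lay above all 8 gel libraries, and the 4 gel conditions overlapped one another in part. The log2 fold change in gels against plates was −2.84 ± 0.127 (SE) untreated and −2.81 ± 0.127 with IL-4, which is 7.14-fold and 7.01-fold lower in TPM + 1 (adjusted p 6.87e-08 and 9.47e-08, limma). With IL-4 the fitted change of *Slc7a1* was 0.17 on plates (95% interval −0.16 to 0.50), 0.13 in low-collagen gels (−0.32 to 0.58) and 0.26 in high-collagen gels (−0.19 to 0.71), none of them called.

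*Slc7a2* (ENSMUSG00000031596, chr8:40862396-40922308) was low in every untreated library, at 2.54 and 2.96 TPM on plates, 1.12 and 1.55 TPM in low-collagen gels and 0.890 and 1.14 TPM in high-collagen gels. With IL-4 it was at 126 and 118 TPM on plates, 159 and 134 TPM in low-collagen gels and 61.9 and 58.3 TPM in high-collagen gels. The 2 high-collagen libraries with IL-4 thus stood below the other 4 with IL-4, and the highest untreated library was at 2.96 TPM. IL-4 raised *Slc7a2* by 5.04 ± 0.130 on plates, 5.98 ± 0.142 in low-collagen gels and 4.93 ± 0.142 in high-collagen gels (adjusted p 1.15e-08, 2.88e-07 and 1.04e-06). With 0.1 rather than 1 added to TPM, these rises were 5.43, 6.69 and 5.77. The order of plates and high-collagen gels thus depended on the value added, since untreated levels were low. *Slc7a2* was the member most changed by collagen density with IL-4: the log2 fold change in high- against low-collagen gels was −1.27 ± 0.142 (adjusted p 0.00968), 2.40-fold lower, against −0.21 ± 0.142 (adjusted p 0.529) without IL-4. The difference between these 2 values, which is also the difference between the IL-4 responses, was −1.06 ± 0.201 and missed the threshold (adjusted p 0.207). It was called after median-ratio rescaling of the libraries or with all 12 libraries in the fit.

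Compared with untreated plates, *Slc7a2* in untreated gels had a log2 fold change of −0.79 ± 0.113 (adjusted p 0.000156). With IL-4 the mean of both gels was lower than plates by a log2 fold change of −0.38 ± 0.113 (adjusted p 0.0137), but the libraries overlapped, since low-collagen gels lay above plates and high-collagen gels below. With low-collagen gels alone the value was 0.25 (adjusted p 0.115), with high-collagen gels alone it was −1.01, and after rescaling the call for the mean of both gels was lost.

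**Figure D2:**
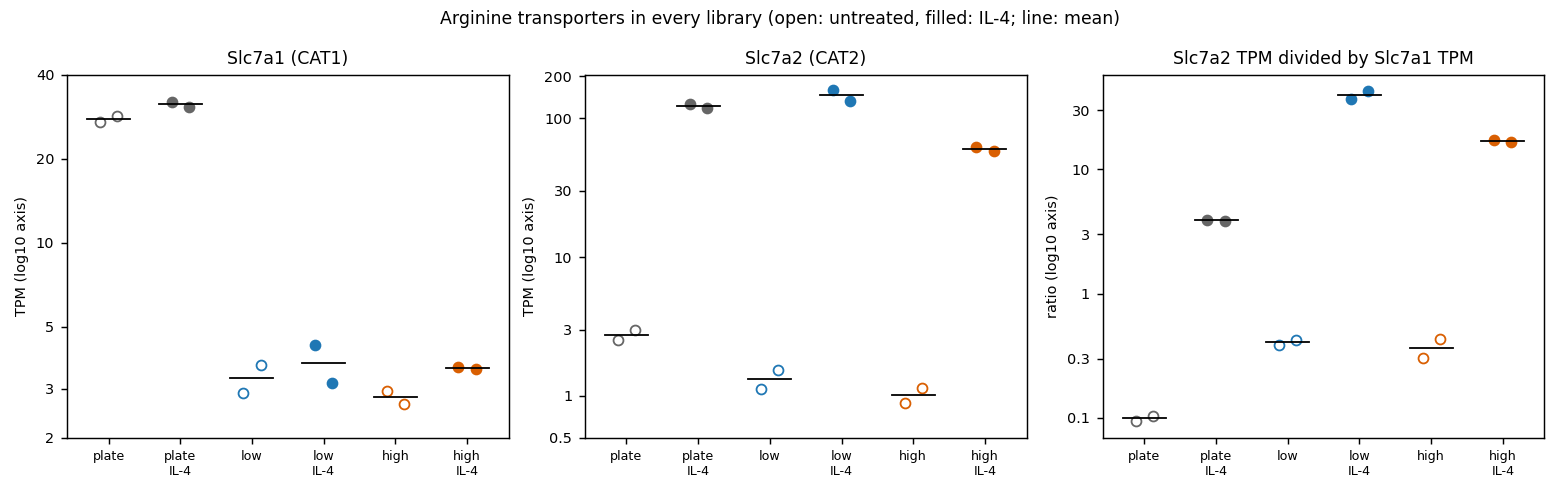
TPM of *Slc7a1* and *Slc7a2* and their ratio in each library (vertical axes, log10 scale) by condition; open points are untreated, filled points had IL-4, and the line is the mean of 2 libraries. *Slc7a2* was at 0.0939 to 0.104 of *Slc7a1* on untreated plates and at 37.2 to 42.7 times it in low-collagen gels with IL-4.

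Which transporter transcript was the more abundant changed with IL-4. The ratio of *Slc7a2* to *Slc7a1* TPM was 0.0939 and 0.104 on untreated plates, 0.386 and 0.424 in untreated low-collagen gels and 0.302 and 0.431 in untreated high-collagen gels. With IL-4 it was 3.94 and 3.87 on plates, 37.2 and 42.7 in low-collagen gels and 17.3 and 16.6 in high-collagen gels. *Slc7a1* was thus the more abundant transcript in all 6 untreated libraries and *Slc7a2* in all 6 with IL-4.

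*Arg1* (ENSMUSG00000019987, chr10:24915221-24927484), the cytosolic arginase, was at 1.76 and 7.09 TPM on untreated plates, 46.3 and 42.0 TPM in untreated low-collagen gels and 41.5 and 37.6 TPM in untreated high-collagen gels. With IL-4 it reached 3114 and 3069 TPM on plates, 7958 and 7672 TPM in low-collagen gels and 6999 and 6307 TPM in high-collagen gels. No *Arg1* library with IL-4 came near an untreated one, and within each treatment the plates were lowest. Its share of all TPM in the IL-4 conditions was 0.310% on plates, 0.783% in low-collagen gels and 0.667% in high-collagen gels, which placed it at rank 24, 9 and 11 among all genes by mean TPM.

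The log2 fold change of *Arg1* with IL-4 was 9.36 ± 0.362 on plates, 7.44 ± 0.0792 in low-collagen gels and 7.36 ± 0.0792 in high-collagen gels (adjusted p 1.32e-07, 5.58e-09 and 6.05e-09). *Arg1* was higher in gels than on plates both untreated (log2 fold change 3.18 ± 0.313, adjusted p 1.2e-05) and with IL-4 (1.22 ± 0.313, adjusted p 0.00632), so the response to IL-4 was smaller in gels by a log2 difference of −1.96 ± 0.443 (adjusted p 0.0204) while the level reached was higher. The size of this difference rests on the untreated plate libraries, at 1.76 and 7.09 TPM: leaving out the first gave −1.18 (adjusted p 0.000509), and the range over all libraries left out was −2.73 to −1.18. Between gel densities with IL-4, *Arg1* differed by −0.23 ± 0.0792 (adjusted p 0.137), 1.18-fold. That call was lost when plates were fitted together with gels (adjusted p 0.732), and without the second high-collagen library (−0.16, adjusted p 0.478), the first low-collagen library (−0.21, adjusted p 0.343) or the second (−0.26, adjusted p 0.312).

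*Arg2* (ENSMUSG00000021125, chr12:79130777-79156301), the mitochondrial arginase, was at or below 3.29 TPM in every library. It was listed at 0 in both untreated plate libraries and was at 0.126 and 0.416 TPM on plates with IL-4. In untreated gels it was at 1.48 and 1.37 TPM (low collagen) and 1.52 and 0.927 TPM (high collagen), and with IL-4 at 1.65 and 1.29 TPM (low collagen) and 3.14 and 3.29 TPM (high collagen). The 2 high-collagen libraries with IL-4 were therefore the highest of the 12, and all 8 gel libraries exceeded all 4 plate libraries. *Arg2* passed the filter of a mean of 1 TPM over the 12 libraries only through the gels, so its call as higher in gels untreated (adjusted p 0.000463) and with IL-4 (adjusted p 0.000216) adds nothing to that order, and no fold is given against plates at 0. In the gels it rose with IL-4 by 0.93 ± 0.224 at high collagen (adjusted p 0.0273) and differed by 0.02 ± 0.224 at low collagen (adjusted p 0.949). The difference between the 2 responses was 0.91 ± 0.317 and was not called (adjusted p 0.443). With IL-4, *Arg2* was the 1 member called higher in high-collagen gels (0.78 ± 0.224, adjusted p 0.0956), a call lost without either high-collagen library (adjusted p 0.228 and 0.294) or the second low-collagen library (adjusted p 0.333).

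*Nos2* (ENSMUSG00000020826, chr11:78920787-78960254) was at or below 1.71 TPM in every library. On plates it was at 0.178 and 0.310 TPM untreated and 0.149 and 0 TPM with IL-4. It was at 0.865 and 0.578 TPM in untreated low-collagen gels, 1.71 and 1.55 TPM in IL-4–treated low-collagen gels, 0.433 and 0.636 TPM in untreated high-collagen gels and 1.49 and 1.46 TPM in IL-4–treated high-collagen gels. The 4 gel libraries with IL-4 lay above the 4 untreated ones, which lay above the 4 on plates. Its mean over the 12 libraries was under 1 TPM, so no comparison with plates was tested. In gels, *Nos2* was called higher with IL-4 at low collagen (0.62 ± 0.237, adjusted p 0.0856) and at high collagen (0.69 ± 0.237, adjusted p 0.0919). Its mean over the 8 gel libraries passed the filter of 1 TPM only through the libraries with IL-4, so these calls add little to the order of the values, and both were lost when 1 of 3 libraries was left out. At low collagen these were the second untreated library (adjusted p 0.278) and each library with IL-4 (0.236 and 0.209), and at high collagen the first untreated library (0.280) and each library with IL-4 (0.259 and 0.201).

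*Oat* (ENSMUSG00000030934, chr7:132557478-132576398), which opens the route from ornithine toward proline, varied least of the 10 genes by fold. It was at 106 and 113 TPM on untreated plates, 123 and 121 TPM on plates with IL-4, 70.8 and 67.8 TPM in untreated low-collagen gels, 89.4 and 86.9 TPM in IL-4–treated low-collagen gels, 65.5 and 62.6 TPM in untreated high-collagen gels and 71.0 and 76.2 TPM in high-collagen gels with IL-4. Plates were above gels in every library. The difference between gels and plates was −0.71 ± 0.0551 untreated and −0.59 ± 0.0551 with IL-4 (adjusted p 2.22e-06 and 8.1e-06). IL-4 raised *Oat* by 0.15 ± 0.0636 on plates (adjusted p 0.12), 0.34 ± 0.0713 in low-collagen gels (adjusted p 0.0098) and 0.20 ± 0.0713 in high-collagen gels (adjusted p 0.109), and with IL-4 it was lower at high than at low collagen (−0.26 ± 0.0713, adjusted p 0.0847). Apart from the low-collagen response, these small differences depended on single libraries. The call on plates was lost without the first untreated library (adjusted p 0.448) or either library with IL-4 (0.304 and 0.237), that in high-collagen gels without the second untreated library (0.315) or the second with IL-4 (0.347), and that between gel densities without the first high-collagen library (0.276) or either low-collagen library (0.247 and 0.246).

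Transcripts for the 3 enzymes among the members that make polyamines were all lower in gels than on plates. *Odc1* (ENSMUSG00000011179, chr12:17544794-17551505), the first and rate-limiting enzyme, was at 119 and 120 TPM on untreated plates, 105 and 95.1 TPM on plates with IL-4, 57.2 and 67.8 TPM in untreated low-collagen gels and 58.7 and 51.7 TPM in low-collagen gels with IL-4. In high-collagen gels it was at 40.3 and 41.1 TPM untreated and 42.3 and 42.6 TPM with IL-4. The levels stepped down from plates through low- to high-collagen gels with no overlap, whereas the 2 treatments overlapped in low-collagen gels. The log2 fold change in gels against plates was −1.23 ± 0.0805 untreated and −1.03 ± 0.0805 with IL-4 (adjusted p 7.43e-07 and 2.68e-06).

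*Odc1* was the only one of the 10 genes called between gel densities without IL-4, at −0.60 ± 0.102 (adjusted p 0.0615), 1.52-fold lower at high collagen, and it was also called with IL-4 at −0.37 ± 0.102 (adjusted p 0.0852). The first call was just lost without either high-collagen library (adjusted p 0.212 and 0.214). The second was lost without either high-collagen library (adjusted p 0.226 and 0.263) or the first low-collagen library (0.283), while the values stayed between −0.46 and −0.28. On plates *Odc1* fell by 0.25 ± 0.093 with IL-4 on the log2 scale (adjusted p 0.0824), a call lost without either untreated library (adjusted p 0.213 and 0.233) or the second with IL-4 (0.340). The fitted IL-4 changes of *Odc1* in gels were −0.17 (low collagen, adjusted p 0.233, and 0.03 after rescaling) and 0.06 (high collagen, adjusted p 0.741). The first was called without the first untreated library (−0.29, adjusted p 0.0800) or the first with IL-4 (−0.26, adjusted p 0.163).

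*Srm* (ENSMUSG00000006442, chr4:148591503-148594993), which makes spermidine, was at 56.2 and 55.6 TPM on untreated plates and 85.6 and 72.4 TPM on plates with IL-4. In gels it was at 8.19 and 8.27 TPM (low collagen, untreated), 15.1 and 13.6 TPM (low collagen, IL-4), 8.39 and 5.73 TPM (high collagen, untreated) and 12.4 and 9.01 TPM (high collagen, IL-4). The lowest plate library was thus several times the highest gel library. The log2 fold change in gels against plates was −2.73 ± 0.152 untreated and −2.58 ± 0.152 with IL-4 (adjusted p 2.68e-07 and 4.82e-07), 6.64-fold and 5.99-fold lower in TPM + 1. *Srm* rose with IL-4 in all 3 cultures, by 0.49 ± 0.176 on plates (adjusted p 0.0769), 0.73 ± 0.198 in low-collagen gels (adjusted p 0.0272) and 0.54 ± 0.198 in high-collagen gels (adjusted p 0.109). The call on plates was lost without either untreated library (adjusted p 0.202 and 0.219) or the first with IL-4 (0.321), and that in high-collagen gels without the second untreated library (0.30, adjusted p 0.410) or the first with IL-4 (0.33, adjusted p 0.439).

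*Sms* (ENSMUSG00000071708, chrX:157443855-157492287), which makes spermine, was at 50.2 and 57.5 TPM on untreated plates and 54.8 and 56.1 TPM on plates with IL-4, against 19.1 and 21.7 TPM in untreated low-collagen gels, 22.7 and 23.04 TPM in IL-4–treated low-collagen gels, 21.3 and 16.5 TPM in untreated high-collagen gels and 18.8 and 21.6 TPM in IL-4–treated high-collagen gels. The gel conditions lay close together, all below the plates. The log2 fold change of *Sms* in gels against plates was −1.41 ± 0.110 untreated and −1.33 ± 0.110 with IL-4 (adjusted p 2.36e-06 and 3.97e-06). No difference with IL-4 or with collagen density was called for *Sms*, except that the IL-4 change in low-collagen gels became 0.36 (adjusted p 0.0827) after rescaling: the IL-4 changes were 0.04 on plates (95% interval −0.24 to 0.33), 0.16 in low-collagen gels (−0.16 to 0.48) and 0.10 in high-collagen gels (−0.23 to 0.42).

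*Sat1* (ENSMUSG00000025283, chrX:155213132-155216449), the enzyme that marks polyamines for breakdown or export, was the one polyamine gene among the members that was higher in gels. It was at 371 and 376 TPM on untreated plates, 685 and 697 TPM on plates with IL-4, 1122 and 1140 TPM in untreated low-collagen gels and 1079 and 1149 TPM in untreated high-collagen gels. With IL-4 it reached 1761 and 1848 TPM in low-collagen gels and 1916 and 1910 TPM in high-collagen gels. The conditions formed 4 steps without overlap, with the 2 gel densities side by side at each treatment. *Sat1* was 3.00-fold higher in gels than on plates when untreated (log2 fold change 1.58 ± 0.0395, adjusted p 4.04e-09) and 2.69-fold higher with IL-4 (1.43 ± 0.0395, adjusted p 8.52e-09). IL-4 raised it by 0.88 ± 0.0456 on plates, 0.67 ± 0.0526 in low-collagen gels and 0.78 ± 0.0526 in high-collagen gels (adjusted p 8.35e-07, 8.49e-05 and 5.88e-05), and no difference between gel densities was called (−0.02 untreated, 0.08 with IL-4).

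**Figure D3:**
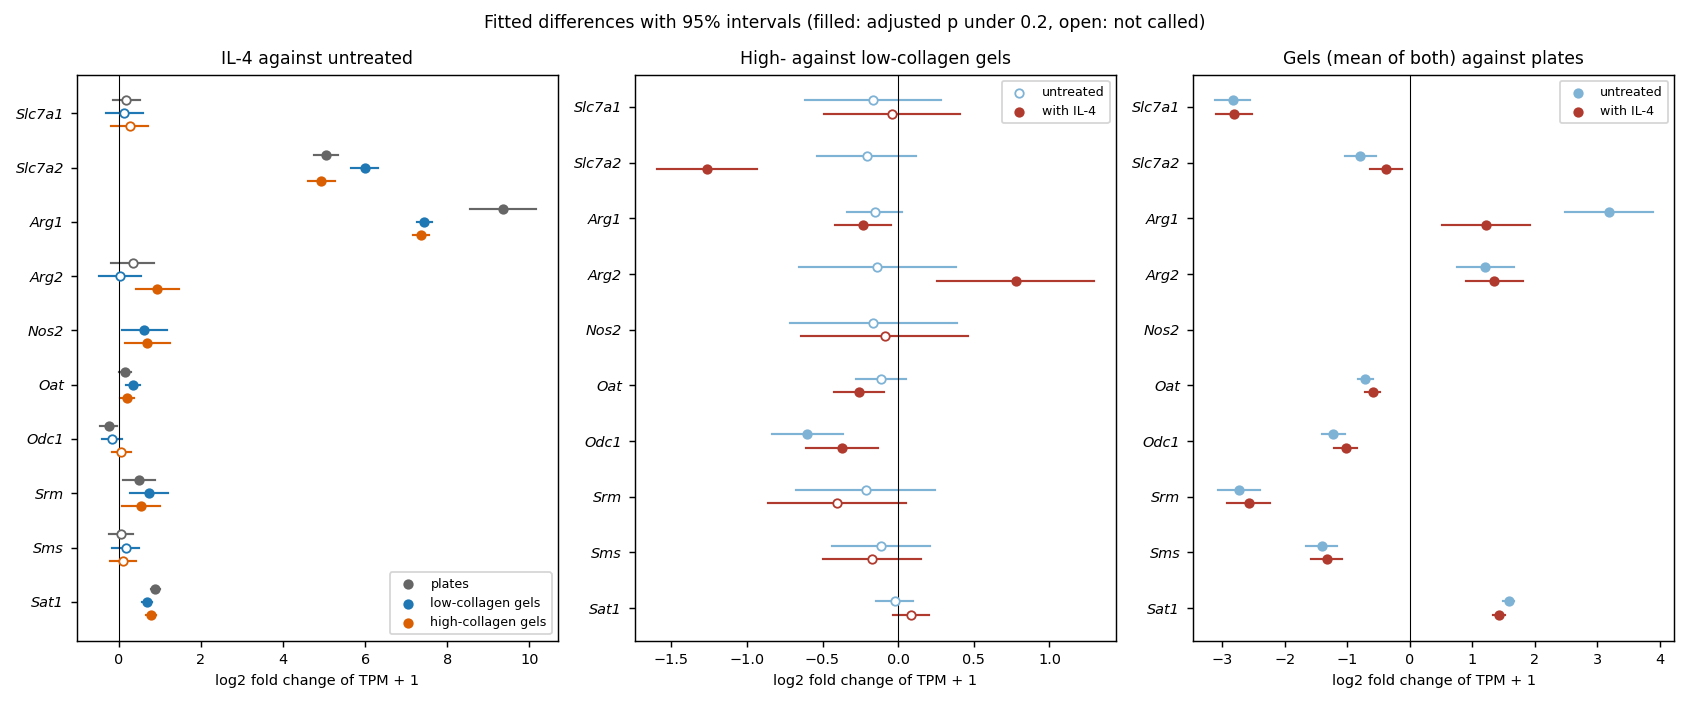
Log2 fold change of TPM + 1 (horizontal axis) for each gene (vertical axis) with IL-4, in high- against low-collagen gels, and in gels against plates; lines are 95% intervals, filled points passed an adjusted p of 0.2 and open points did not. The IL-4 panel is led by *Arg1* (7.36 to 9.36) and *Slc7a2* (4.93 to 5.98), and in the gel panel *Arg1*, *Arg2* and *Sat1* lie right of 0 and the other 6 genes left of it; *Nos2* was not tested there, and the *Arg2* points rest on the pseudocount because untreated plates are listed at 0.

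By comparison, IL-4 was followed by more rises than falls among the 10 genes. On plates 5 of 9 tested members were called higher and 1 lower, where 14.7% of the 11865 genes tested were higher and 24.0% lower. In low-collagen gels 6 of 10 were higher and 0 lower (background 13.2% and 40.4% of 11852 genes), and in high-collagen gels 7 of 10 were higher and 0 lower (11.5% and 22.8%). The median log2 fold change of the members was 0.34, 0.48 and 0.62, beside −0.06, −0.19 and −0.10 over all genes. Without *Nos2*, which passed the filter in gels only through its level with IL-4, 5 of 9 were higher in low-collagen gels and 6 of 9 in high-collagen gels. The median log2 fold change of the members without it was 0.34 in low-collagen gels and 0.54 in high-collagen gels. *Arg1*, *Slc7a2*, *Sat1*, *Srm* and *Oat* were called higher in all 3. The share of all genes called so was not counted, so this does not set these members apart. For *Srm* and *Oat*, the calls on plates and in high-collagen gels depended on single libraries.

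Collagen density changed fewer members. With IL-4, 1 of 10 was called higher and 4 lower in high-collagen gels (background 14.1% and 6.99%), namely *Arg2* higher and *Slc7a2*, *Odc1*, *Oat* and *Arg1* lower. Without IL-4, 0 were higher and 1 lower (3.23% and 4.79%). In the interaction of collagen and IL-4, 0 of 10 members passed limma in either direction (0.194% and 0.169%), with 2 of 10 at an unadjusted p under 0.05, *Slc7a2* and *Arg2*, against 1171 of 11852 genes.

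In gels against plates, 3 of 9 were higher and 6 lower both without IL-4 (background 29.7% and 46.7%) and with it (25.7% and 51.8%). One of the higher genes, *Arg2*, passed the filter only through the gels, and without it 2 of 8 were higher and 6 lower in both. Since most of all genes differed in this contrast, these counts alone do not set the members apart, and the sizes above carry the description. Untreated, 0.405% of genes tested had a lower log2 fold change than *Slc7a1* and 0.472% than *Srm*. This share was 6.72% for *Sms*, 9.51% for *Odc1*, 19.4% for *Slc7a2* and 22.4% for *Oat*, so these falls were less unusual. It was 97.0% for *Sat1* and 99.8% for *Arg1*, which were higher in gels. The IL-4 response differed between gels and plates for 3 of 9 members, with *Slc7a2* larger in gels and *Arg1* and *Sat1* smaller (10.8% of all genes were called larger and 16.4% smaller). The comparisons with plates share the same plate libraries, so they are not independent of one another.

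Rescaling the libraries to a common median ratio moved the median of all genes by over 0.1 in 3 comparisons, from −0.19 to −0.0047 for IL-4 in low-collagen gels, from −0.15 to 0.01 for untreated gels against plates and from −0.24 to 0.01 for the same with IL-4. The share of higher genes among all called went with it, from 38.0% to 48.2% for IL-4 on plates, from 24.7% to 52.8% in low-collagen gels and from 33.6% to 53.0% in high-collagen gels. For collagen density it went from 66.9% to 47.4% with IL-4 and from 40.3% to 51.6% without, and for the interaction from 53.5% to 35.9%. For gels against plates it went from 38.9% to 50.7% untreated, from 33.2% to 50.8% with IL-4, and from 39.7% to 60.1% for the difference in response. Among the members, 80 of 86 results stayed on their side of the threshold under this rescaling, and 0 changed sign among those called.

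Around the 10 genes, a list of 45 further genes of arginine, nitric oxide cofactor, proline, polyamine, hypusine and creatine metabolism was described, of which 44 were in the table and 35 were tested over the 12 libraries and 34 over the gels. *Cps1* and *Agmat* were listed at 0 in all libraries and *Otc* stayed at or below 0.126 TPM. With IL-4, 7 of 35 were called higher and 6 lower on plates (14.7% and 24.0% of all genes tested), 8 of 34 higher and 10 lower in low-collagen gels (13.2% and 40.4%) and 7 higher and 10 lower in high-collagen gels (11.5% and 22.8%). With high against low collagen, 6 were higher and 2 lower with IL-4 (14.1% and 6.99%) and 4 higher and 1 lower without (3.23% and 4.79%), and 0 differed in the interaction by limma (0.194% and 0.169%), with 4 at an unadjusted p under 0.05. In gels against plates 8 were higher and 20 lower without IL-4 (29.7% and 46.7%) and 6 higher and 22 lower with it (25.7% and 51.8%), and the IL-4 response was larger in gels for 8 and smaller for 7 (10.8% and 16.4%). The median of the list was −0.32 in untreated gels against plates and −0.43 with IL-4, beside −0.15 and −0.24 over all genes.

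Of the arginine synthesis enzymes, 2 were tested and 1 was called. *Ass1*, which joins citrulline to aspartate so that arginine can be remade, was at 133 and 127 TPM on untreated plates and 79.1 and 80.2 TPM on plates with IL-4, but at 13.7 to 22.3 TPM in untreated gels and 37.4 to 47.7 TPM in gels with IL-4. It therefore fell by 0.70 ± 0.131 with IL-4 on plates (adjusted p 0.00359) and rose by 1.37 ± 0.151 and 0.99 ± 0.151 in low- and high-collagen gels (adjusted p 0.000489 and 0.00376), and the difference between these responses was itself called (1.88 ± 0.161, adjusted p 0.000129). *Asl*, the next enzyme, was at 53.7 to 76.2 TPM in all libraries and was called in no comparison. Of the 4 other transporters, *Slc7a6* was lower in gels (log2 fold change −1.65 untreated and −1.55 with IL-4) and *Slc7a7*, an exporter of cationic amino acids, fell by 1.00 and 0.85 with IL-4 in low- and high-collagen gels.

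The transcript of *Aldh18a1*, the first enzyme of proline synthesis from glutamate, was lower in gels. Its log2 fold change was −2.49 ± 0.0957 untreated and −2.12 ± 0.0957 with IL-4 (adjusted p 2.95e-08 and 9.43e-08). Of the enzymes for tetrahydrobiopterin, the cofactor of nitric oxide synthase, *Pts* was higher in gels (1.31 untreated and 1.16 with IL-4) and *Spr* lower (−0.75 and −1.03).

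Beside *Odc1*, *Srm* and *Sms*, polyamine synthesis has a further enzyme, *Amd1*, and controls of ornithine decarboxylase, and these differed in direction. *Amd1*, which supplies the aminopropyl groups for spermidine and spermine, was lower in gels (−1.18 ± 0.0642 untreated, −0.76 ± 0.0642 with IL-4), as was *Azin1*, an inhibitor of the antizymes that destroy ornithine decarboxylase (−2.06 ± 0.136 and −1.76 ± 0.136). *Azin2*, the second antizyme inhibitor, rose with IL-4 in all 3 cultures, from 11.5 and 8.41 to 35.3 and 27.7 TPM on plates, from 7.71 and 7.56 to 47.0 and 47.9 TPM in low-collagen gels and from 11.0 and 10.4 to 60.4 and 57.6 TPM in high-collagen gels. Its log2 fold changes were 1.57 ± 0.144, 2.49 ± 0.0868 and 2.36 ± 0.0868 (adjusted p 3.8e-05, 1.67e-06 and 3.3e-06). *Oaz2*, an antizyme, was higher in gels by 0.92 with and without IL-4, whereas *Oaz1* was called in neither.

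On the breakdown side, *Smox*, the oxidase of spermine, fell with IL-4 by 1.43 ± 0.103 on plates, 0.88 ± 0.0965 in low-collagen gels and 0.51 ± 0.0965 in high-collagen gels (adjusted p 7.07e-06, 0.000489 and 0.00992), the opposite direction to *Sat1*. Like *Sat1* it was higher in gels than on plates, by 0.62 ± 0.0888 untreated and 1.36 ± 0.0888 with IL-4. *Mtap*, which recycles the methylthioadenosine left by polyamine synthesis, was lower in gels (−1.41 and −1.82). Of the polyamine carriers, *Atp13a3* was lower in gels (−1.25 and −1.23), *Atp13a2* was higher, and *Slc18b1*, at 0.598 to 6.41 TPM, was called higher in untreated gels only (0.69, adjusted p 0.0854) and lower with IL-4 in high-collagen gels (−1.06 ± 0.384, adjusted p 0.107). Both *Slc18b1* calls were lost without the untreated high-collagen library at 6.41 TPM (0.40, adjusted p 0.211, and −0.48, adjusted p 0.438), the first also without the second untreated plate library (adjusted p 0.357) and the second also without the first high-collagen library with IL-4 (adjusted p 0.334).

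*Eif5a*, the protein that receives hypusine from spermidine, was at 768 and 751 TPM on untreated plates and 245 to 284 TPM in untreated gels (−1.54 ± 0.0525, adjusted p 1.43e-08) and was raised by IL-4 in all 3 cultures, by 0.37, 0.78 and 0.60. All 4 genes of the hypusine group were called lower in gels, both untreated and with IL-4, where 46.7% and 51.8% of all genes tested were. In creatine synthesis, which draws on arginine, *Gatm* rose with IL-4 from 27.1 and 29.3 to 132 and 140 TPM on plates (2.23 ± 0.103, adjusted p 3.96e-07), and by 1.27 ± 0.112 and 1.37 ± 0.112 in low- and high-collagen gels, a smaller response than on plates (−0.91 ± 0.126, adjusted p 0.00179). *Gamt*, the next enzyme, was lower in gels (−0.81 and −1.07).

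**Figure D4:**
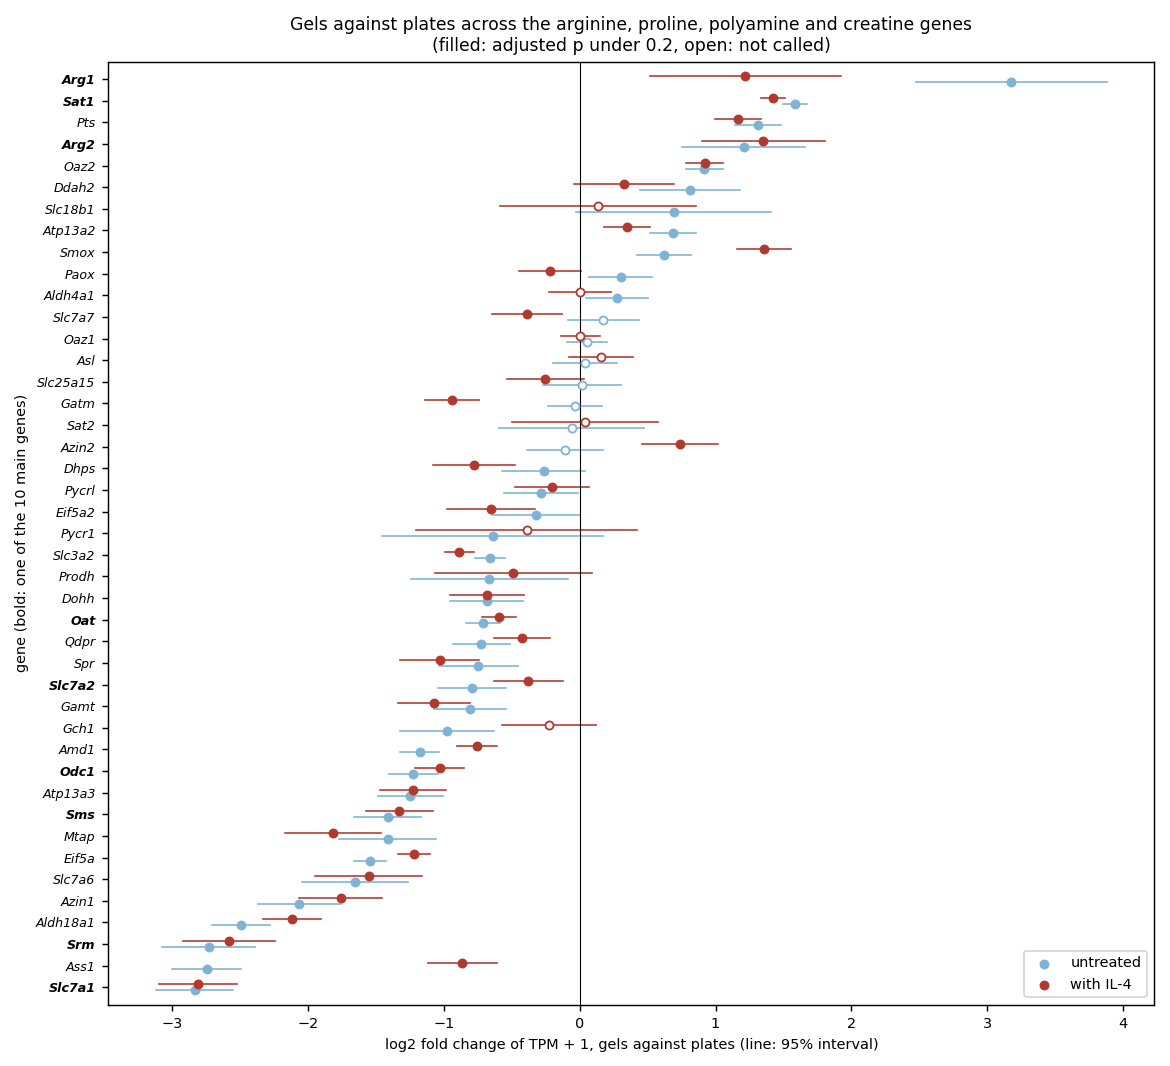
Log2 fold change of TPM + 1 in gels against plates (horizontal axis, lines are 95% intervals) for the tested genes of the 10 (bold) and of the wider list except 1, ordered by the untreated value; filled points passed an adjusted p of 0.2 and open points did not. *Arg1* and *Sat1* lie at the upper end and *Slc7a1* and *Srm* near the lower end, between them *Ass1* at −2.75 untreated and −0.86 with IL-4.

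Across the 12 libraries, which share their conditions and are not independent points, the genes whose log2(TPM + 1) followed *Arg1* most closely among 8113 genes with a mean of at least 10 TPM were *Smap2*, *Rnf130* and *Dse* (Pearson's r 0.991, 0.986 and 0.982). For *Slc7a2* they were *Atp6v1b2*, *Fam20c* and *Cldn11* (0.995, 0.994 and 0.994). Each of these, like *Slc7a2*, had a lower mean at high than at low collagen with IL-4, which follows in part from how they were chosen. The means were 346 against 400 TPM for *Atp6v1b2* and 384 against 425 TPM for *Fam20c*. For *Cldn11* they were 22.5 against 40.9 TPM, with 37.5 TPM on plates. For *Odc1* they were *Pole3*, *Aida* and *Clic1* (0.987 each), and 1062 genes correlated with *Odc1* above 0.9, against 108 for *Arg1* and 120 for *Slc7a2*.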

How the data were processed

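RNA-seq libraries from 12 cultures of BMDMs were grouped by their labels into 6 conditions with 2 libraries each. The authors made stranded mRNA libraries, mapped paired-end reads to GRCm38 cDNA with kallisto 0.46.1, and deposited TPM for each gene and library in a single table. How transcripts were summed to genes is not given in the sources used here. TPM are scaled to a common total, keep no depth, and depend on how kallisto shares reads among similar transcripts, so that a gene listed at 0 need not lack reads. Of 34456 lines, 129 repeated others and were collapsed. Columns of other samples numbered 0.

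Genes whose TPM averaged 1 or more were kept and taken as log2(TPM + 1). limma 3.58.1 in R 4.3.3 was fitted with one mean per condition and a trend of variance on level, and p-values were adjusted by Benjamini-Hochberg over all genes tested: on 8 gel libraries for IL-4 in gels, collagen density and their interaction, and on 12 libraries for 4 comparisons with plates. SE and 95% intervals are those of limma. Gels against plates compares the mean of both gel densities with plates. The fits were tested on simulated data with known changes.

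The 10 genes, the wider list of 45, the marker lists and the motifs were chosen with earlier results of these data known. A gene of the wider list was named if called with a log2 fold change of at least 1 in any of the 9 comparisons or if alone in its group; *Asl*, *Oaz1*, *Oaz2*, *Atp13a2*, *Cps1*, *Agmat* and *Otc* were named after their values were seen. The values of 1 gene of the wider list, which is in its counts, are not reported here. Locations are from GENCODE (GRCm38), promoters from RefSeq (GRCm38.p6). Alternatives were a pseudocount of 0.1, no filter, median-ratio rescaling, a replicate block, an adjusted p under 0.05, other libraries in the fit and each library left out. One gel density at a time against plates was added after the data were seen. Tables were made with python 3.11.15, pandas 2.3.3 and numpy 2.4.6.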

Additional observations from a re-analysis of the deposited data

Results flagged for a closer look

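The response to IL-4 differed between gels and plates, by limma's own test of that difference, for 3 of the 9 members tested. In the wider list it differed for 15 of the 35 genes tested, 8 of them named here. Of all 11865 genes tested, 10.8% had a larger response in gels and 16.4% a smaller one, so the count of members alone does not set them apart. For *Arg1* the response in gels minus that on plates was −1.96 ± 0.443 on the log2 scale (adjusted p 0.0204), from a base of 1.76 and 7.09 TPM on plates and 37.6 to 46.3 TPM in gels. Without the plate library at 1.76 TPM it was −1.18. For *Slc7a2* it was 0.41 ± 0.159 (adjusted p 0.134), and it was lost when any of 6 libraries was left out, among them the second untreated plate library (0.33, adjusted p 0.347) and the first low-collagen library with IL-4 (0.35, adjusted p 0.220). For *Sat1* it was −0.16 ± 0.0558 (adjusted p 0.107), lost without either untreated plate library (adjusted p 0.274 and 0.213) or the second plate library with IL-4 (0.254). It was also lost with high-collagen gels only, and after rescaling, where it was −0.06 (adjusted p 0.711).

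In the wider list the response was larger in gels for *Ass1* (1.88), which fell with IL-4 on plates and rose in gels, and for *Azin2* (0.85), *Smox* (0.74, where the fall was smaller), *Amd1* (0.42), *Aldh18a1* (0.38) and *Eif5a* (0.32). It was smaller, or more negative, in gels for *Gatm* (−0.91) and *Slc7a7* (−0.56). The calls for *Aldh18a1* (adjusted p 0.226 to 0.285 without any one of the 4 plate libraries) and *Slc7a7* (adjusted p 0.210 without the second plate library with IL-4) depended on single libraries. With 2 libraries per condition no library could be tested as an outlier within its group.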

How the results depend on the processing

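In gels against plates, 3 members were higher and 6 lower whichever library was left out; with IL-4 this became 4 and 5 with low-collagen gels only, and 3 and 5 after rescaling. At an adjusted p under 0.05, members called went from 5 to 3 higher and from 1 to 0 lower for IL-4 on plates, from 7 to 4 higher for IL-4 in high-collagen gels, from 1 to 0 higher and from 4 to 1 lower for high against low collagen with IL-4, from 1 to 0 lower for the same without IL-4, and from 1 to 0 higher and from 2 to 1 lower for the IL-4 response in gels against plates. With all 12 libraries in the fit, *Odc1* was called lower with IL-4 in low-collagen gels (0 to 1 lower) and *Slc7a2* in the interaction (0 to 1 lower). Median-ratio rescaling also called *Slc7a2* in the interaction (1 lower), and moved the response in gels against plates to 3 higher (*Slc7a2*, *Odc1* and *Oat*) and 1 lower (*Arg1*, with *Sat1* lost). Over all genes the same rescaling moved this response from 1278 to 1816 higher and from 1940 to 1205 lower. The shift of the members in this response thus went the same way and does not set them apart. With high-collagen gels only against plates, that response had 0 higher and 1 lower, and *Slc7a2* turned to −0.11 (adjusted p 0.792). This sign rests on the pseudocount of 1. With a pseudocount of 0.1 the rise of *Slc7a2* with IL-4 was 5.43 on plates and 5.77 in high-collagen gels. With low-collagen gels only, *Slc7a2* with IL-4 turned to 0.25. After rescaling *Gatm* in untreated gels against plates turned to 0.14 (adjusted p 0.104). Leaving out each library in turn gave 3 to 5 higher and 0 to 1 lower for IL-4 on plates, 0 to 1 lower in low-collagen gels, 0 to 1 higher and 1 to 4 lower for high against low collagen with IL-4, 0 to 1 lower without IL-4, and 0 to 2 higher and 1 to 2 lower for the response. High-collagen gels with IL-4 gave 5 to 7 higher and low-collagen gels 5 to 6. The shares of all genes called with a library left out are not given here, so these ranges do not set the members apart. *Arg2* on plates was called with IL-4 at a pseudocount of 0.1 (adjusted p 0.0474) and *Slc7a1* with only the plate libraries in the fit (adjusted p 0.189). The causes of these changes were not tested, except that a stricter threshold by its construction calls fewer genes.

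For the wider list, counts moved by over 1.5 times in 8 of 18 cases at an adjusted p under 0.05, for example from 10 to 2 lower for IL-4 in high-collagen gels, which was 6 without the filter and 4 after rescaling, and from 6 to 1 higher for high against low collagen with IL-4. Over all genes, rescaling moved the count lower with IL-4 in low-collagen gels from 4784 to 2497 and the count higher from 1567 to 2791, the count lower in high-collagen gels from 2698 to 1766, the count lower at high collagen with IL-4 from 828 to 1350 and the count of smaller responses in gels from 1940 to 1205. The interaction went from 23 to 14 higher and from 20 to 25 lower. At an adjusted p under 0.05, counts over all genes moved by over 1.5 times in 14 of 18 cases. The fewer members called at that threshold thus do not set them apart.

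Same-numbered libraries shared little deviation from their condition means: these deviations correlated at −0.123 to 0.109 over 15 pairs of conditions, with 1 above 0.1. Whether the libraries were paired when they were made cannot be told from this. A replicate block leaves the fitted changes as they were by construction, since every condition holds both replicate numbers. Only the p-values could move. With it all 86 results of the members kept their side of the threshold, with 5 called higher for IL-4 on plates. TPM carry no depth, so which low values, such as those of *Arg2* and *Nos2*, are limited by counting cannot be given.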

Other observations

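The ratio of *Sat1* to *Odc1* TPM, an acetyltransferase for breakdown against the first enzyme of synthesis, increased in the order plates, low- and high-collagen gels within each treatment. It was 3.13 and 3.15 on untreated plates, 19.6 and 16.8 in untreated low-collagen gels and 26.8 and 27.9 in untreated high-collagen gels. With IL-4 it was 6.54 and 7.33 on plates, 30.0 and 35.7 in low-collagen gels and 45.3 and 44.9 in high-collagen gels. The 6 conditions did not overlap in this ratio, which rests on transcripts and not on enzyme activity or polyamine levels.

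Summed over both transporters, *Slc7a1* and *Slc7a2* transcripts were at 29.6 and 31.3 TPM on untreated plates against 3.77 to 5.19 TPM in untreated gels. With IL-4 the sum was 158 and 149 TPM on plates, 163 and 137 TPM in low-collagen gels and 65.5 and 61.8 TPM in high-collagen gels, so plates and low-collagen gels overlapped and high-collagen gels stood below both. The sum of *Odc1*, *Srm* and *Sms* was 224 to 245 TPM over the 4 plate libraries and 63.3 to 97.7 TPM over the 8 gel libraries.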
